A study of Mus musculus with 6 samples.

Results

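The 42 genes described here encode proteins of the lysosome and of autophagy, together with transcription factors known to control many such genes. They were taken by symbol from a table of read counts for 24594 mouse genes, in which all 42 were found. The table came from RNA-seq of adult mouse intestinal organoids, which are hollow epithelial structures grown in a gel from crypts of the proximal small intestine. The 3 doxycycline libraries came from organoids of the TetON-hYAP/H2B-mCherry strain given 1 µg/ml doxycycline for 48 h from passaging, and the 3 control libraries from organoids of the same strain that were not induced. Doxycycline switches on a human YAP gene with the S127A change, which keeps this Hippo pathway coactivator active, and a red fluorescent histone. No group had doxycycline without the transgene, so the drug and active YAP cannot be told apart. The labels give 1 animal per sample for crypt cultures but do not say that these 6 samples came from separate animals, so the p-values measure the spread between samples, which may be technical.

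Lysosomes break down proteins, sugars and lipids with acid hydrolases, and a proton pump, the V-ATPase, acidifies them. In autophagy a double membrane closes around cytoplasm and delivers it to the lysosome, and proteins of the ATG8 family are attached to that membrane by a conjugation system. Transcription factors of the MiT/TFE family bind E-box motifs in promoters of many of these genes, and the kinase complex mTORC1 keeps them out of the nucleus when nutrients are plentiful. In the small intestine, lysosomes are prominent in enterocytes, and autophagy genes are known for their role in the granule secretion of Paneth cells.

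Control replicate 3 stood apart before any gene was tested. The libraries held 11258768 to 16803062 counts with doxycycline and 8533452 to 14643817 counts in controls, the lowest being control replicate 3. On log2 CPM (a gene's counts relative to the library's TMM-scaled total), its mean correlation with the other control libraries was 0.918, against 0.954 and 0.955 for control replicates 1 and 2 and 0.987 to 0.989 for the doxycycline libraries. Epithelial markers were high in all libraries, with a summed level of 17392 to 18558 CPM with doxycycline and 3987 to 4580 CPM in controls over 6 genes, Krt19 being the highest. The genes did not change alike: the log2 rise was 2.68 for Krt8, 2.90 for Krt18 and 2.47 for Krt19. It was 1.27 for Vil1 and 0.70 for Cdh1, while Epcam was not called (log2 change -0.14). Of the defining leukocyte markers, Tyrobp had 0 counts in all libraries, and the list of 8 summed to 27.3 to 28.1 CPM with doxycycline and 20.5 to 44.3 CPM in controls, of which Csf1r made the most. The 7 mesenchymal markers summed to 1.11 to 1.70 CPM with doxycycline and 4.43 to 6.49 CPM in controls, with Vim the highest and Col1a1 at 0 counts throughout. Markers of 3 epithelial cell types moved with the groups. The 6 Paneth cell markers, led by Lyz1, summed to 34.9 to 39.5 CPM with doxycycline and 2310 to 4727 CPM in controls, and the 6 goblet cell markers, led by Spdef, to 1.52 to 2.59 CPM with doxycycline and 51.4 to 102.4 CPM in controls. The 6 enterocyte markers, led by Alpi, summed to 12941 to 14012 CPM with doxycycline and 1850 to 2677 CPM in controls. All 6 Paneth and all 6 goblet markers fell and all 6 enterocyte markers rose. Their part in the values below was not tested, and in bulk RNA fewer cells of a type and less RNA per cell cannot be told apart.

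Promoter windows were searched for the E-box bound by MiT/TFE factors and for AP-1 and TEAD motifs, with no test of the shares. RefSeq promoter windows (GRCm38.p6, 250 bases before to 50 after an annotated start) were given for 34 of the 42 genes. Some genes had several windows, and some starts lay inside the gene, as for Ctsa, Atg7, Atp6v1a and Atp6v0a1. Distances below are from the start that belongs to the window holding the match. The E-box CACGTG was found in the windows of 12 of the 34 (35.3%), against 8.09% of 27025 genes with a window and 19% of 116 genes of the 4 comparison lists described at the end. The longer palindrome TCACGTGA, which contains that E-box and is close to the element bound by TFEB, was found in 6 of the 34 (17.6%), against 1.12% of all genes and 5.17% of the comparison lists. Both motifs read the same on the 2 strands. The 6 genes with the longer palindrome are shown because their windows come nearest to the MiT/TFE element by letters. Each line gives 30 bases 5′ to 3′ along the gene, with TCACGTGA in capitals.
Atp6v1a, chr16:44139373-44139402, minus strand, 132 bases before the start: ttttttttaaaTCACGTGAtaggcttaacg
Ctsd, chr7:142387908-142387937, minus strand, 99 bases before the start: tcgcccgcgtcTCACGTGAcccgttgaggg
Atp6v0d1, chr8:105566050-105566079, minus strand, 4 bases before the start: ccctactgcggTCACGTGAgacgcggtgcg
Mcoln1, chr8:3500462-3500491, plus strand, 46 bases before the start: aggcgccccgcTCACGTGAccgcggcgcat
Ctsa, chr2:164833749-164833778, plus strand, 13 bases before the start: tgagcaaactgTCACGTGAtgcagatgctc
Gla, chrX:134601182-134601211, minus strand, 195 bases before the start: tgagatctcggTCACGTGAgcaactctcgg
Ctsa held a further copy at base 5 after the same start, and Gla a further one 228 bases before its start. The distance is that of the first base of the palindrome.

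The Lamp1 promoter held more copies of the E-box than that of any other of these genes, with 4 in the last 61 bases before the start. Its 250 bases before the start (chr8:13158911-13159160, plus strand) are shown with CACGTG in capitals.
Lamp1: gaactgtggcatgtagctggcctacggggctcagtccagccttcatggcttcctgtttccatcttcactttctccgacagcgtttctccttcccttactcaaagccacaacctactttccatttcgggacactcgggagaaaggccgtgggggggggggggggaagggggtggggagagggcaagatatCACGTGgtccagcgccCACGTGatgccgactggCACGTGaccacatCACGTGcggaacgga

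The AP-1 motif TGANTCA, where N is any base, was found in 5 of the 34 windows (14.7%), against 8.97% of all genes and 0.862% of the comparison lists, which is 1 of 116. AP-1 is the dimer of Fos and Jun family proteins that often binds beside TEAD, the DNA-binding partner of YAP. The 2 matches shown, with the motif in capitals, were picked because their genes changed strongly. Picked in this way, they say nothing about a link between the motif and the change.
Neu1, chr17:34931094-34931123, plus strand, 148 bases before the start: actctaccaacTGAGTCAtatgccatccct
Atp6v0a1, chr11:101010276-101010305, plus strand, 111 bases before the start: gcttatgtgggTGATTCAtattcttaagtc
The others were in Glb1, Psap and Tfe3, whose log2 changes with doxycycline were -0.75, -0.04 and 0.77. In Glb1 the match shares bases with an E-box. The motif GGAATG, which TEAD proteins bind, was found on either strand in 6 of the 34 windows (17.6%), against 16.6% of all genes and 12.1% of the comparison lists, and the 6 were Gaa, Gabarapl2, Glb1, Grn, Map1lc3b and Npc2. A match is a string of letters and does not show that a factor binds there.

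Of the 42 genes, 41 passed edgeR's filter on low counts and 1, Mitf, did not. With doxycycline 12 of the 41 rose and 3 fell, at an adjusted p under 0.05 from edgeR's quasi-likelihood test with Benjamini-Hochberg adjustment over 12909 genes. These are 29.3% higher and 7.32% lower, beside 21.7% higher and 23.6% lower among all genes, and 15 of 41 called (36.6%) beside 45.3% of all genes. The genes that rose span the acid lipase Lipa, the sialidase Neu1, the pump subunits Atp6v0a1 and Atp6v1a, the ceramidase Asah1, the cathepsin Ctsd, the sterol transporter Npc1, the autophagy genes Gabarapl2, Sqstm1, Atg9a and Uvrag, and the transcription factor Tfe3. Those that fell were the glycosidase Gla, the kinase Ulk1 and the conjugation enzyme Atg7. The median log2 fold change was 0.28, or 0.37 above the median of all genes (-0.08). Scaled by total counts alone, the median was -0.16, again 0.37 above that of all genes (-0.52), and 7 rose and 8 fell, beside 13.5% higher and 39.7% lower among all genes. The ranges of CPM did not overlap between the groups for 26 of 41 (63.4%), beside 61.3% of all genes.

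The counts depended on single libraries. Without control replicate 3, 27 of the 42 genes then tested rose and 6 fell (64.3% and 14.3%), beside 34.9% higher and 35.1% lower among all genes, and 33 of 42 were called (78.6%) beside 69.9% of all genes. All 12 rises and all 3 falls were kept. Without any 1 of the other 5 libraries 10 or 11 genes rose (23.8% to 26.8%), beside 14.8% to 18.8% of all genes. The falls numbered 1 without control replicate 1 or 2 (2.44% or 2.38%), beside 20.5% or 19.9% of all genes. There were 0 falls without any 1 doxycycline library, beside 14.3% to 15.7% of all genes. In control replicate 3, 18 of 41 genes were at least 1.5 times the higher of the other 2 control libraries, beside 23.6% of all genes. There, 1 of 41 (Wipi1) was as far below the lower of them, beside 25.2%. The 18 included all 6 cathepsins. The same library had the highest sums of Paneth cell markers (4727 CPM, against 2310 and 2527 CPM in the other control libraries) and of goblet cell markers (102.4 CPM, against 51.4 and 51.9 CPM). Among control libraries it also had the highest sum of enterocyte markers (2677 CPM, against 1850 and 1905 CPM). The same held for leukocyte markers (44.3 CPM, against 20.5 and 26.7 CPM). The part of these markers in the values of control replicate 3 was not tested.

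**Figure D1:**
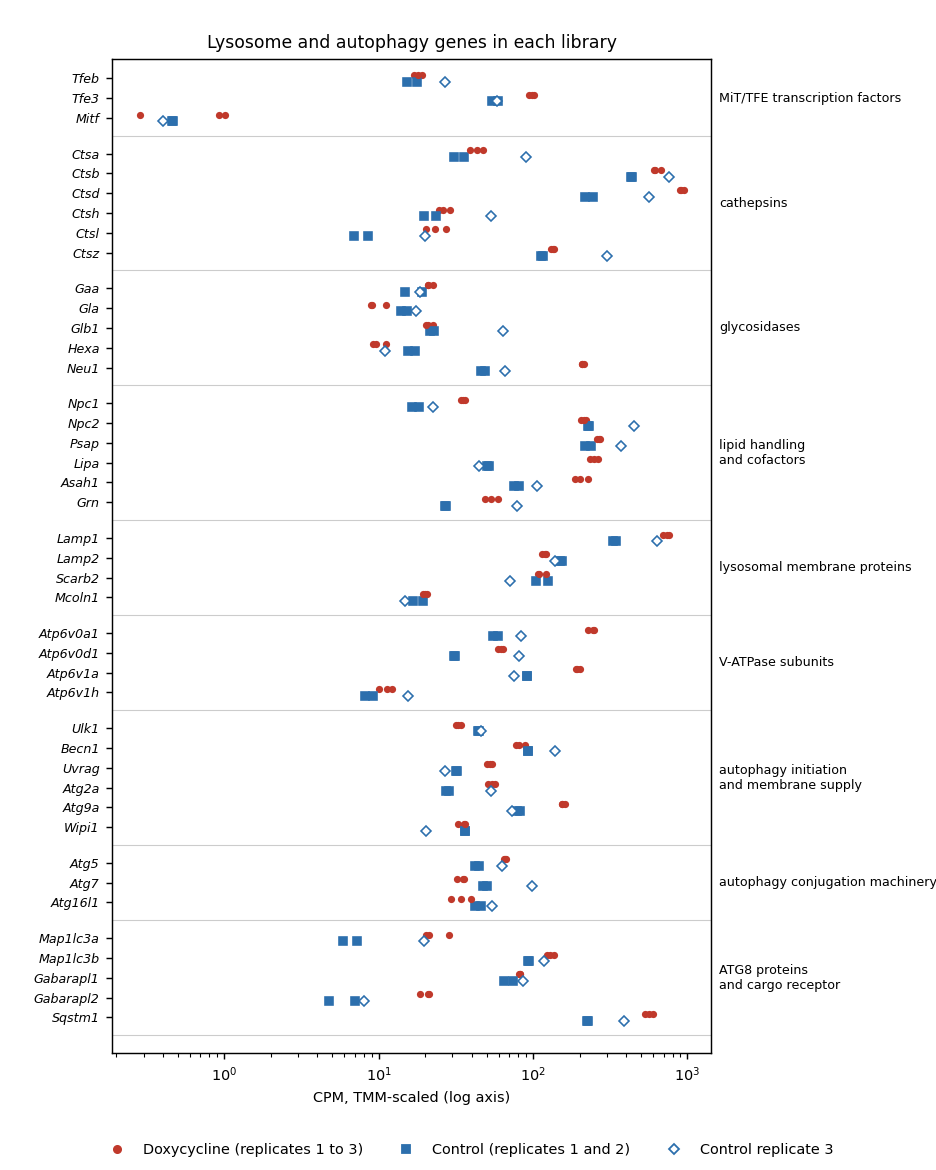
Level of each of the 42 genes in each library, as TMM-scaled CPM on a log axis, with doxycycline libraries as red circles, control replicates 1 and 2 as blue squares and control replicate 3 as an open diamond. The cathepsins show control replicate 3 at 1.5 times or more of the other control libraries, while Lipa, Neu1, Atp6v0a1 and Atp6v1a show all 3 doxycycline libraries above all 3 control libraries.

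**Figure D2:**
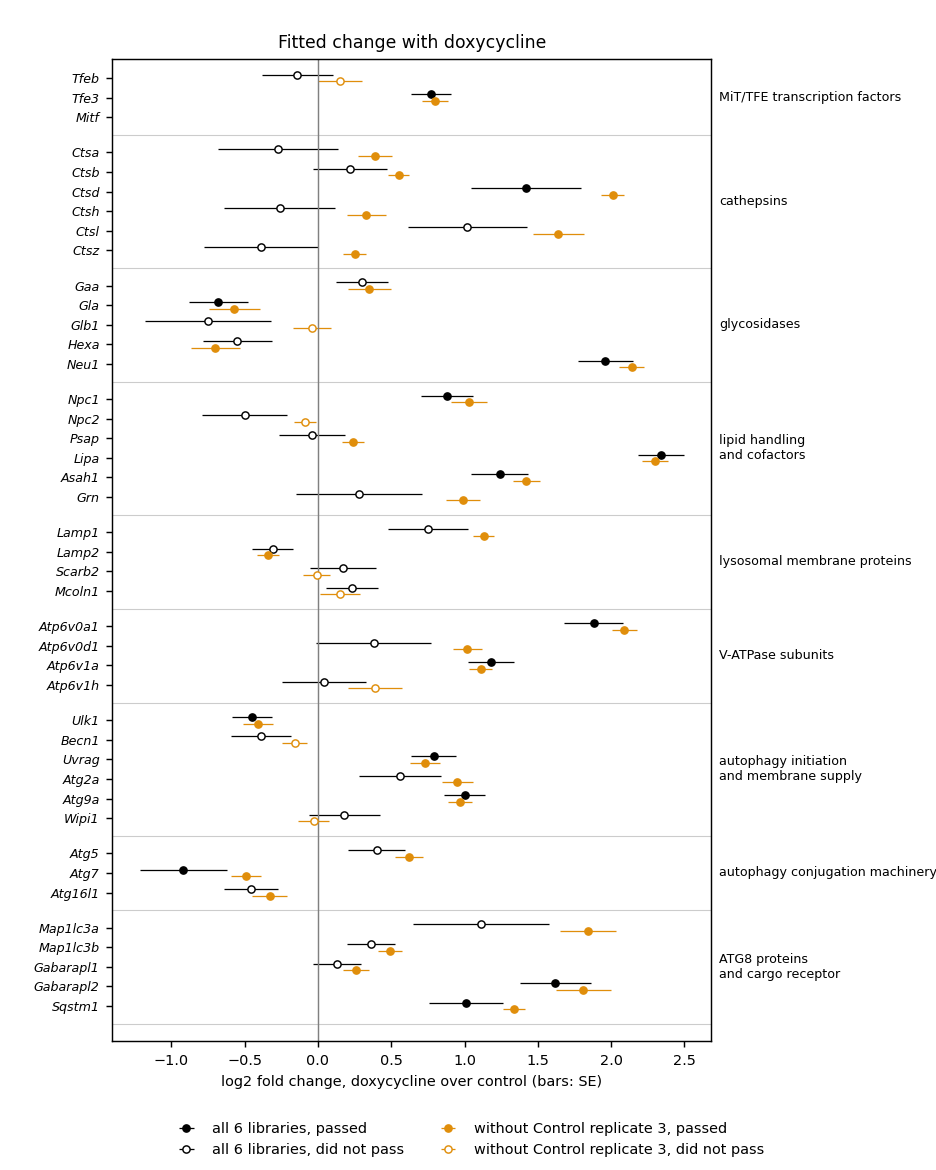
Fitted log2 fold change of doxycycline over control with its standard error, for all 6 libraries (black) and without control replicate 3 (orange), where filled points passed an adjusted p of 0.05. Of the genes plotted, 15 passed with all libraries and 33 without control replicate 3.

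The MiT/TFE transcription factors are given first, since the family is known to act on many lysosomal genes. Their binding and activity were not measured here. Tfe3, which encodes one of the factors held in check by mTORC1, had 102.1, 97.9 and 94.3 CPM with doxycycline and 54.5, 59.4 and 58.4 CPM in controls. All doxycycline libraries were above all control libraries, and Tfe3 had a log2 rise of 0.77 (SE 0.138; edgeR adjusted p = 0.00408). Scaled by total counts alone, the call was lost (log2 change 0.33). Tfeb, the family member best known for driving lysosomal genes, had 16.99, 19.1 and 17.9 CPM with doxycycline and 15.2, 17.8 and 26.8 CPM in controls, and the groups overlapped (log2 change -0.14, adjusted p = 0.665). Mitf, the melanocyte member of the family, had at most 1.01 CPM with doxycycline and 0.468 CPM in controls, and was not tested. The remaining member of the family, Tfec, stood in a list of mTORC1 and TFEB regulators. It had 82, 86 and 104 counts with doxycycline and 3, 2 and 0 counts in controls, and had a log2 rise of 5.89 (SE 0.492; adjusted p = 2.27e-04). Per kilobase of exon, Tfe3 was the most abundant of the 4, at 27.1 ± 1.09 CPM with doxycycline and 15.9 ± 0.716 CPM in controls (SD, n = 3 each), and Tfec had 4.40 ± 0.267 CPM with doxycycline and 0.0615 ± 0.0536 CPM in controls. Tfeb lay at 4.48 ± 0.259 CPM per kilobase with doxycycline, within the spread of Tfec, and at 4.96 ± 1.52 CPM in controls.

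Among the cathepsins, the lysosomal peptidases, the aspartic protease gene Ctsd rose and the other 5 did not pass the test. The share higher was 16.7%, beside 21.7% of all genes. Ctsd (chromosome 7, 142375910 to 142387827) had 952, 892 and 906 CPM with doxycycline and 215, 245 and 564 CPM in controls. The groups did not overlap although control replicate 3 was above the other controls, and Ctsd had a log2 rise of 1.42 (SE 0.374; adjusted p = 0.0196), and by 2.01 without control replicate 3. Its call was lost without control replicate 2 or any doxycycline library (adjusted p up to 0.0632), and also under total-count scaling. The cysteine protease gene Ctsb had 678, 613 and 609 CPM with doxycycline and 432, 439 and 759 CPM in controls (log2 change 0.22, adjusted p = 0.505). Ctsl, another cysteine protease gene, had 27.2, 20.3 and 23.3 CPM with doxycycline and 6.90, 8.47 and 19.8 CPM in controls, which did not overlap, yet the test was not passed (log2 change 1.02; adjusted p = 0.0794). For Ctsa, which encodes the protective protein of the sialidase complex, Ctsh, an aminopeptidase, and Ctsz, a carboxypeptidase, the log2 changes were -0.27, -0.26 and -0.39 (adjusted p from 0.446 to 0.622). Each of these 3 had its highest value in control replicate 3, and without that library their log2 changes were 0.39, 0.33 and 0.25. All 6 cathepsins were called higher without it, at adjusted p from 2.54e-14 to 0.0323, beside 34.9% of all genes. The count of cathepsins that rose was 0 without control replicate 2, without any doxycycline library, with total-count scaling or at a threshold of 0.01. In these settings 13.5% to 18% of all genes were higher. The count was 2 (33.3%) with DESeq2 or limma-voom, beside 25.3% and 23% of all genes. Exons of other annotated genes cover part of several cathepsins, so their levels are uncertain: 31.5% of the exon length of Ctsd (Gm49369, same strand), 28.2% of Ctsl (Gm47123, antisense), 16.3% of Ctsb (Fdft1) and 13.5% of Ctsa (Pltp). Gm49369 and Gm47123 were not among the genes counted under those names. The summed level of the 6 was 1867, 1723 and 1741 CPM with doxycycline and 822, 862 and 1785 CPM in controls.

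Of the 5 glycosidases, which remove sugars from glycoproteins and glycolipids, 1 rose and 1 fell. These shares of 20% each were close to those of all genes (21.7% higher and 23.6% lower). Neu1 (chromosome 17, 34931253 to 34937297), the lysosomal sialidase, had 212, 206 and 207 CPM with doxycycline and 48.95, 46.3 and 65.6 CPM in controls. The doxycycline libraries lay close together and far above the controls, and Neu1 had a log2 rise of 1.96 (SE 0.187; adjusted p = 3.25e-04), a 3.89-fold rise. It was called in all 14 alternative settings. Gla, the alpha-galactosidase whose human counterpart is deficient in Fabry disease, had 9, 8.88 and 11.2 CPM with doxycycline and 15.2, 14.01 and 17.5 CPM in controls, a fall by 0.68 (SE 0.203, adjusted p = 0.0303). Its call held without control replicate 3 and was lost with any other single library left out (adjusted p up to 0.121). Hexa, the alpha subunit of beta-hexosaminidase, had 9.61, 9.16 and 11.2 CPM with doxycycline and 17.3, 15.6 and 11.1 CPM in controls (log2 change -0.55, adjusted p = 0.0909; leaving out control replicate 3, -0.70 and 9.46e-04). Glb1, the acid beta-galactosidase, had 20.9, 22.5 and 20.4 CPM with doxycycline and 21.4, 22.9 and 63.4 CPM in controls, so its fitted change of -0.75 (adjusted p = 0.193) rested on control replicate 3 and was -0.04 without it. Gaa, the acid alpha-glucosidase that breaks down glycogen, had a log2 change of 0.30 (adjusted p = 0.208).

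Of 6 genes for lipid breakdown, lipid export and their cofactors, 3 rose and none of the 6 fell. These are 50% higher and 0% lower, beside 21.7% and 23.6% of all genes. Lipa (chromosome 19, 34492316 to 34527474), the acid lipase that frees cholesterol and fatty acids from lipoprotein lipids, had 249, 232 and 265 CPM with doxycycline and 51.8, 50.6 and 44.8 CPM in controls. This was the largest change of the 41 genes, a log2 rise of 2.34 (SE 0.158, adjusted p = 1.04e-04) or 5.07-fold, and control replicate 3 was the lowest control library here. Asah1, the acid ceramidase, had 228, 188 and 201 CPM with doxycycline and 74.8, 80.6 and 107 CPM in controls, a log2 rise of 1.24 (SE 0.193, adjusted p = 0.00238). Npc1, the membrane protein that exports cholesterol from the lysosome, had 34.99, 33.96 and 36.3 CPM with doxycycline and 18.2, 16.6 and 22.4 CPM in controls, a log2 rise of 0.88 (SE 0.176, adjusted p = 0.00627; 0.44 and not called with total counts). Rmc1, a gene on the opposite strand whose exons cover 3.68% of the exon length of Npc1, also rose, by 1.17 (adjusted p = 0.00151), and reads in the shared stretch cannot be assigned, since the use of strand in counting is not given in the sources used here. Npc2, the soluble partner that hands cholesterol to Npc1, had 219.9, 204 and 213 CPM with doxycycline and 226, 229.7 and 447 CPM in controls (log2 change -0.50, adjusted p = 0.194). The exporter and its partner were thus not called alike, a difference that was not itself tested. Psap, the precursor of the saposins that present glycolipids to hydrolases, had 260.4 to 270.5 CPM with doxycycline and 218 to 369 CPM in controls (log2 change -0.04, adjusted p = 0.893). Grn, the precursor of the granulins, had 59.3, 53.3 and 48.5 CPM with doxycycline and 27.0, 27.2 and 78.4 CPM in controls, with a log2 change of 0.28 (adjusted p = 0.620) that was 0.99 without control replicate 3 (adjusted p = 2.05e-07).

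**Figure D3:**
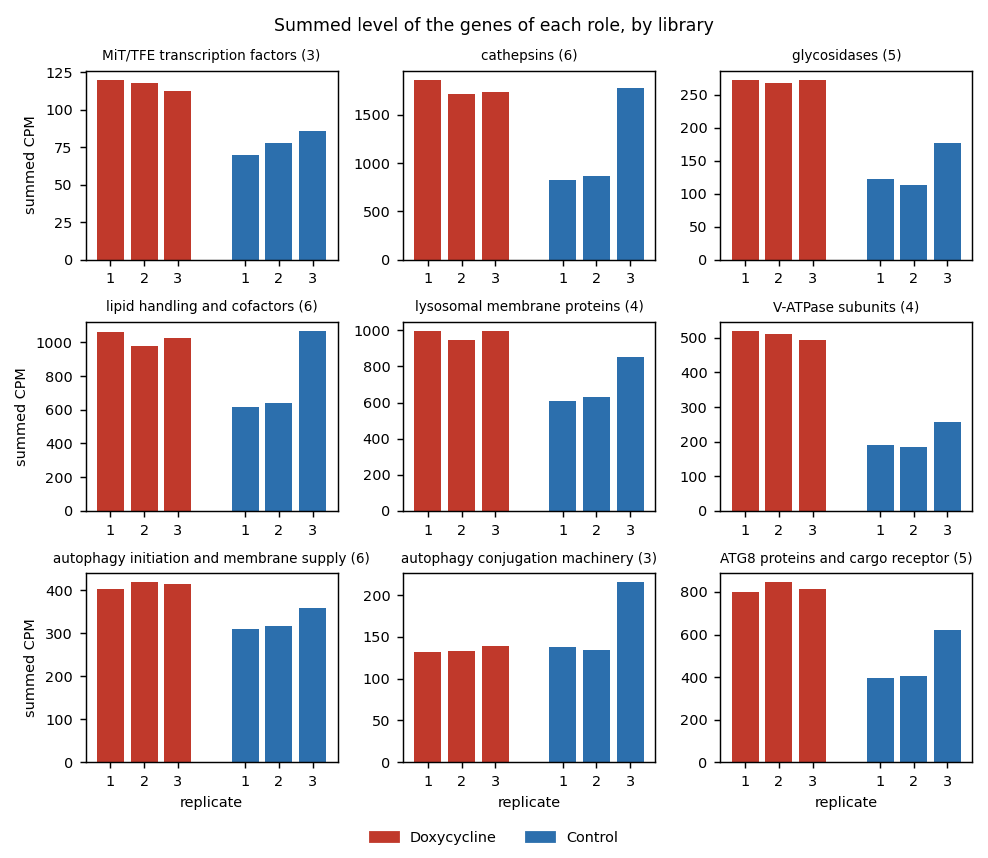
Summed CPM of the genes of each role in each library, with the number of genes in brackets, doxycycline in red and control in blue; bars are single libraries and start at 0. The cathepsin sums of the doxycycline libraries (1723 to 1867 CPM) lie around that of control replicate 3 (1785 CPM), whereas the V-ATPase sums (493 to 520 CPM) lie above all control libraries (184 to 256 CPM).

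None of the 4 lysosomal membrane proteins passed the test in edgeR, beside 45.3% of all genes. With DESeq2 1 was called higher and 1 lower (25% each), beside 25.3% and 26.8% of all genes. The same counts held without control replicate 3, beside 34.9% higher and 35.1% lower among all genes. Lamp1, the abundant glycoprotein that lines the lysosomal membrane, had 755, 699 and 733 CPM with doxycycline and 329.5, 342 and 631 CPM in controls. The groups did not overlap (log2 change 0.75, SE 0.275, adjusted p = 0.0624), and without control replicate 3 the change was 1.13 (adjusted p = 2.99e-11). Lamp2, whose splice forms serve membrane stability and chaperone-mediated autophagy, had 115, 120.2 and 120.4 CPM with doxycycline and 153, 149.6 and 138 CPM in controls (log2 change -0.31, adjusted p = 0.115). Here too the groups did not overlap, and the change was -0.34 without control replicate 3 (adjusted p = 6.65e-04). Scarb2, the carrier of glucocerebrosidase, had 107 to 120.4 CPM with doxycycline and 70.8 to 124 CPM in controls. Mcoln1, the calcium channel whose opening is known to activate TFEB, had 19.8, 19.4 and 20.6 CPM with doxycycline and 19.4, 16.8 and 14.8 CPM in controls (log2 change 0.23, adjusted p = 0.321).

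Of 4 V-ATPase subunits, 2 rose (50%, beside 21.7% of all genes), both by more than 2-fold. Atp6v0a1 (chromosome 11, 101009422 to 101063719), an isoform of the membrane-embedded a subunit, had 246, 249.5 and 227 CPM with doxycycline and 58.8, 55.04 and 83.0 CPM in controls, a log2 rise of 1.88 (SE 0.204, adjusted p = 5.66e-04). Atp6v1a, the subunit that hydrolyses ATP, had 201, 190.2 and 191 CPM with doxycycline and 91.4, 90.7 and 75.7 CPM in controls, a log2 rise of 1.18 (SE 0.154, adjusted p = 0.00113). Both were called in all 14 alternative settings. Atp6v0d1, which links the membrane and cytosolic sectors, had 63.6, 59.6 and 62.3 CPM with doxycycline and 31.0, 30.6 and 81.6 CPM in controls, so the groups overlapped only through control replicate 3 (log2 change 0.38, adjusted p = 0.467; 1.02 and 2.50e-08 without that library). Atp6v1h, a regulatory subunit, had a log2 change of 0.04 (adjusted p = 0.930).

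Of 6 genes for the early steps of autophagy, 2 rose and 1 fell (33.3% and 16.7%), beside 21.7% and 23.6% of all genes. Atg9a (chromosome 1, 75180861 to 75192010), the scramblase on vesicles that seed the new membrane, had 154, 153 and 159.9 CPM with doxycycline and 78.4, 82.3 and 72.6 CPM in controls, a log2 rise of 1.00 (SE 0.143, adjusted p = 0.00160). Exons of Gm29253 on the same strand cover 41.8% of the exon length of Atg9a. No gene of that name was among those counted, and how reads there were assigned is not known. Uvrag, a partner of Beclin 1 in the lipid kinase complex, had 52.3, 50.1 and 54.6 CPM with doxycycline and 31.9, 32.0 and 26.8 CPM in controls, a log2 rise of 0.79 (SE 0.152, adjusted p = 0.00546; 0.35 and not called with total counts). Ulk1, the kinase that starts autophagy and is inhibited by mTORC1, had 31.6, 34.3 and 32.6 CPM with doxycycline and 43.9, 44.5 and 46.2 CPM in controls. The groups did not overlap and Ulk1 fell by 0.45 (SE 0.140, adjusted p = 0.0348), a small change whose call held without control replicate 3 and was lost with any other single library left out (adjusted p up to 0.1405). Becn1, which encodes Beclin 1, had 78.1, 88.1 and 80.7 CPM with doxycycline and 92.8, 92.3 and 139 CPM in controls (log2 change -0.39, adjusted p = 0.159). Exons of Cntd1 on the opposite strand cover 29.6% of the exon length of Becn1, so its level is uncertain. The lipid transfer gene Atg2a had 51.1 to 56.6 CPM with doxycycline and 27.5 to 53.8 CPM in controls (log2 change 0.56, adjusted p = 0.144; leaving out control replicate 3, 0.95 and 1.43e-07). Wipi1, which binds the phospholipid made by that kinase complex, had a log2 change of 0.18 (adjusted p = 0.587).

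The conjugation genes gave 1 fall among 3 (33.3%), beside 23.6% of all genes. Atg7, the enzyme that activates ATG8 proteins for attachment to lipid, had 35.6, 32.4 and 35.3 CPM with doxycycline and 50.5, 47.3 and 97.7 CPM in controls. It fell by 0.92 (SE 0.297, adjusted p = 0.0411), and by 0.49 without control replicate 3 (adjusted p = 3.14e-04). The call was lost without any of the doxycycline libraries (adjusted p up to 0.136). Atg16l1, the scaffold of the conjugation complex and a human risk gene for Crohn disease that is studied in Paneth cells, had 29.3, 34.3 and 39.5 CPM with doxycycline and 45.9, 41.8 and 54.4 CPM in controls (log2 change -0.46, adjusted p = 0.0793; leaving out control replicate 3, -0.33 and 0.0196). Atg5, its partner, had 66.8, 65.9 and 64.5 CPM with doxycycline and 41.9, 44.6 and 63.3 CPM in controls (log2 change 0.40, adjusted p = 0.136).

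Of the 4 ATG8 family genes, 1 rose, beside 21.7% of all genes. Gabarapl2 had 20.8, 18.5 and 21.3 CPM with doxycycline and 4.80, 7.005 and 8.05 CPM in controls, a log2 rise of 1.62 (SE 0.243, adjusted p = 0.00204). Map1lc3a had 28.6, 21.1 and 20.1 CPM with doxycycline and 5.91, 7.24 and 19.6 CPM in controls, which did not overlap, yet the test was not passed (log2 change 1.11; adjusted p = 0.0926, and 1.84 with 5.44e-08 when control replicate 3 was left out). Map1lc3b, the family member most used as a marker of autophagosomes, had 137, 129 and 123 CPM with doxycycline and 93.8, 92.6 and 118 CPM in controls (log2 change 0.36, adjusted p = 0.112; leaving out control replicate 3, 0.49 and 2.80e-05). Gabarapl1 had 81.2 to 82.7 CPM with doxycycline and 64.8 to 86.6 CPM in controls (adjusted p = 0.546). Per kilobase of exon with doxycycline, Gabarapl1 was the highest of these 4 at 45.1 ± 0.458 CPM. It was followed by Map1lc3b at 25.1 ± 1.32 CPM, Map1lc3a at 20.9 ± 4.18 CPM and Gabarapl2 at 12.1 ± 0.887 CPM (SD, n = 3). The SDs of Map1lc3b and Map1lc3a overlapped with doxycycline, while within each library Map1lc3b was the higher. In controls the levels were 41.3 ± 6.02 CPM per kilobase for Gabarapl1, 19.5 ± 2.71 CPM for Map1lc3b, 9.82 ± 6.80 CPM for Map1lc3a and 3.95 ± 0.991 CPM for Gabarapl2. The order of the 4 was thus the same in both groups, with Gabarapl2 the lowest in each. A further family member, Gabarap, stood in a list of other autophagy genes and was above all 4 by these means. It had 158.5 ± 14.4 CPM per kilobase with doxycycline and 165.3 ± 120.5 CPM in controls.

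Sqstm1 encodes p62, the receptor that ties ubiquitin-marked cargo to ATG8 proteins. It had 529, 595 and 565 CPM with doxycycline and 226, 223 and 390.2 CPM in controls, and had a log2 rise of 1.01 (SE 0.252; adjusted p = 0.0163). The groups did not overlap, and the rise was 1.34 without control replicate 3 (adjusted p = 5.96e-12). Its call was lost without control replicate 1 or 2 or doxycycline replicate 2 or 3 (adjusted p up to 0.0636), and also under total-count scaling. Exons of Mrnip on the opposite strand cover 20.6% of its exon length; that gene had 1.65 ± 0.317 CPM with doxycycline and 5.51 ± 3.60 CPM in controls (SD, n = 3 each), far below Sqstm1. Per kilobase, Ctsd (431 ± 14.7 CPM), Lamp1 (327 ± 12.6 CPM) and Sqstm1 (199 ± 11.8 CPM) were the most abundant of the 42 with doxycycline. In controls the highest were Lamp1 (195 ± 76.5 CPM) and Ctsd (161 ± 90.8 CPM). Their SDs overlapped, both genes being highest in control replicate 3, while within each control library Lamp1 was the higher.

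Genes with and without each motif overlapped in their change. The 6 genes with the palindrome TCACGTGA, shown above, had 2 rises (Ctsd and Atp6v1a) and 1 fall (Gla), with a median log2 change of 0.30 and a range of -0.68 to 1.42. The 6 with an E-box but not the palindrome, namely Atg5, Atg7, Ctsl, Gaa, Glb1 and Lamp1, had no rise and 1 fall, with a median of 0.35. The 21 tested genes whose windows held neither had 8 rises and 1 fall, with a median of 0.28. They included Lipa, Neu1 and Atp6v0a1, the 3 largest rises. Of the 5 genes with the AP-1 motif, 3 were called higher (Atp6v0a1, Neu1 and Tfe3), while Glb1 (-0.75) and Psap (-0.04) were not called. Of the 28 tested genes without it, 7 were called higher and 3 lower, beside 21.7% higher and 23.6% lower among all genes. The medians were 0.77, the value of Tfe3, with the motif and 0.29 without it. For GGAATG the medians were 0.29 with the motif and 0.38 without. These are descriptions of small sets, with no test. They use all 6 libraries, and single genes with and without the palindrome moved when control replicate 3 was left out. Atp6v0d1, with the palindrome, went from 0.38 to 1.02, and Grn, with neither the palindrome nor an E-box, from 0.28 to 0.99.

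**Figure D4:**
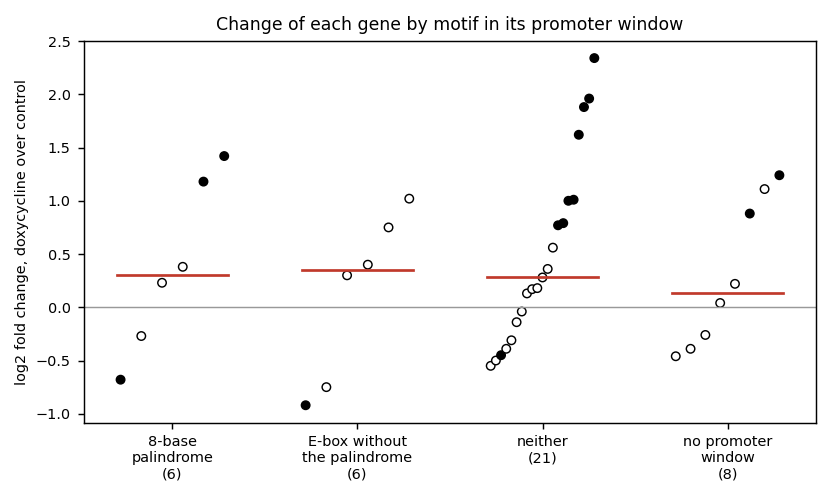
Log2 fold change of doxycycline over control for the 41 tested genes, by motif in the RefSeq promoter window, where each point is a gene, filled if it passed an adjusted p of 0.05, and the red line is the median. With all 6 libraries, the 3 classes with a window have medians of 0.30, 0.35 and 0.28 and overlap in range.

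Other genes of the same organelle and process, taken from 4 lists, are given for comparison. Of 48 tested genes for other lysosomal proteins, 15 rose (31.2%) and 4 fell (8.33%), with a median log2 change of 0.24. The 4 with the smallest adjusted p all rose. Cln8, which loads lysosomal enzymes into transport vesicles in the endoplasmic reticulum, averaged 313.5 ± 42.04 CPM with doxycycline and 41.3 ± 5.96 CPM in controls (log2 change 2.92, adjusted p = 1.11e-04). Arsa, which desulfates sulfatide, averaged 87.6 ± 4.31 CPM with doxycycline and 19.9 ± 1.30 CPM in controls. Gm2a, the activator of ganglioside breakdown, averaged 100.2 ± 8.20 CPM with doxycycline and 24.8 ± 6.62 CPM in controls, and Manba, the beta-mannosidase, 39.8 ± 3.79 CPM with doxycycline and 16.0 ± 1.36 CPM in controls (SD, n = 3 each). Of 38 other autophagy genes, 11 rose (28.9%) and 1 fell (2.63%), beside 21.7% higher and 23.6% lower among all genes, with a median of 0.37. The rises numbered 6 or 7 (15.8% or 18.4%) without any 1 library other than control replicate 3, and 6 with the replicate number as a block. Among all genes, 14.8% to 18.8% were higher with the same libraries left out and 17.5% with the block. The mitophagy receptor gene Bnip3l averaged 429 ± 38.1 CPM with doxycycline and 133 ± 5.95 CPM in controls (log2 change 1.68, adjusted p = 2.82e-04), and the cargo receptor gene Optn 63.4 ± 6.22 CPM with doxycycline and 24.4 ± 3.15 CPM in controls. Plekhm1 and Epg5, which act in the fusion of autophagosomes with lysosomes, rose by 1.00 and 1.24. The gene that fell was Fundc1, another mitophagy receptor (15.3 ± 1.39 CPM with doxycycline and 29.95 ± 2.98 CPM in controls).

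Of 16 tested genes for other V-ATPase subunits, 3 rose (18.8%) and 2 fell (12.5%), so 31.2% were called beside 45.3% of all genes, with a median log2 change of 0.29. Atp6v0e2 rose by 1.37 and Atp6v0c, part of the proton-carrying ring, by 1.29. Atp6v0a4 rose by 2.78 at a low level, with 13, 21 and 44 counts with doxycycline and 4 in each control library. Atp6v1g2, a subunit isoform known from neurons, fell to 1.53 ± 0.350 CPM with doxycycline, against 7.33 ± 0.960 CPM in controls, and Atp6ap2, an accessory subunit, averaged 73.1 ± 3.09 CPM with doxycycline and 108 ± 19.9 CPM in controls. The calls of Atp6v0c and Atp6ap2 were lost without any doxycycline library (adjusted p up to 0.102 and 0.142), that of Atp6v0c also with total-count scaling and that of Atp6ap2 also without control replicate 2. Of 31 tested genes for mTORC1 and TFEB regulators, 3 rose and 2 fell, 16.1% called beside 45.3% of all genes, with a median log2 change of -0.10. Besides Tfec, the GTPase gene Rragc rose by 0.45 (adjusted p = 0.0333), and Prkaa2, a catalytic subunit of AMP-activated kinase named after its value was seen, by 1.33 (adjusted p = 0.0431). Neither call held with total-count scaling, where the log2 changes were 0.01 for Rragc and 0.89 for Prkaa2, or without control replicate 2 or any doxycycline library (adjusted p up to 0.131 and 0.1204), and that of Rragc was also lost without control replicate 1. Mlst8, a subunit of mTORC1, averaged 33.1 ± 2.50 CPM with doxycycline and 77.2 ± 9.32 CPM in controls (log2 change -1.22, adjusted p = 0.00119), and Depdc5, part of a complex that restrains mTORC1, 6.96 ± 1.67 CPM with doxycycline and 14.1 ± 3.25 CPM in controls, a call lost without doxycycline replicate 1 or 2 (adjusted p up to 0.0861). Scaled by total counts alone, the medians of the 4 lists were -0.20 for lysosomal proteins, -0.07 for autophagy, -0.15 for the V-ATPase and -0.54 for the regulators, beside -0.52 for all genes. Without control replicate 3, 23 of 48 lysosomal, 23 of 38 autophagy, 12 of 16 V-ATPase and 11 of 31 regulator genes rose, beside 34.9% of all genes.

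**Figure D5:**
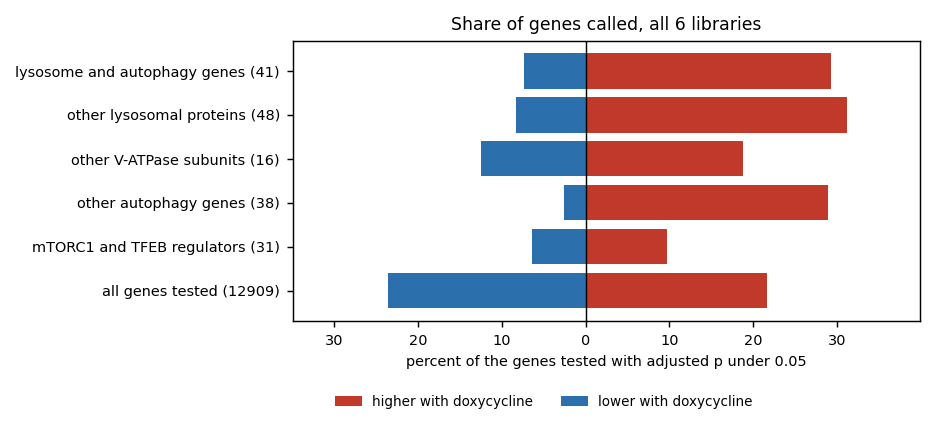
Percent of tested genes called higher (red, to the right) or lower (blue, to the left) with doxycycline, for the lysosome and autophagy genes, the 4 comparison lists and all 12909 genes, with the number tested in brackets. The lysosome and autophagy genes have 29.3% higher and 7.32% lower, and all genes 21.7% higher and 23.6% lower.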

How the data were processed

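Per the labels' protocols, libraries of total RNA came from the TruSeq RNA kit, and an Illumina NextSeq read them. The authors deposited whole-number read counts per Entrez gene. The build named in the submitters' processing notes is mm10. The aligner, counting tool, annotation and use of strand are not given in the sources used here. Symbols and positions came from RefSeq GRCm38.p6, the assembly of mm10 (24570 of 24594 IDs matched), and exon lengths and overlaps from GENCODE M21.

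Counts were tested over all genes with edgeR 4.0.16 (R 4.3.3): expression filter by group, TMM scaling, robust quasi-likelihood F-test, Benjamini-Hochberg threshold 0.05. The procedure was tested on simulated data. CPM used TMM-scaled library sizes; CPM per kilobase divided these by the merged length of all exons of a gene, so isoform use can shift them. Alternatives were RLE factors, total counts alone, no filter, a filter of 10 counts in 3 libraries, DESeq2 1.42.0, limma-voom 3.58.1, the replicate number as a block, a threshold of 0.01 and each library left out. The genes, the lists, the naming rule (all 42 genes; from every comparison list the 4 called genes lowest in adjusted p, and called genes against the direction of most, where at most 3) and the tests were chosen with earlier results of these data known. No column of the table was left unused.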

Additional observations from a re-analysis of the deposited data

How the results depend on the processing

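Totals of 8533452 to 16803062 counts limit what can be seen for genes such as Mitf. Among the 42 genes, the counts of 12 higher and 3 lower were 7 and 8 (17.1% and 19.5%) when scaled by total counts alone. At a threshold of 0.01 or with the replicate block edgeR called 0 lower, against 4 (9.76%) with DESeq2 and 2 (4.88%) with limma-voom. Leaving out each library in turn gave 10 to 27 higher and 0 to 6 lower. Over all genes, 1747 were higher and 5131 lower with total counts (13.5% and 39.7%), and 1780 and 1697 at 0.01 (13.8% and 13.1%). With a library left out, 1945 to 4632 were higher and 1888 to 4654 lower (14.8% to 34.9% and 14.3% to 35.1%). The highest counts were without control replicate 3, and the lowest of the falls without doxycycline replicate 2. Shares of all genes were 25.3% higher and 26.8% lower with DESeq2, and 23% and 22.8% with limma-voom. They were 17.5% and 17.4% with the block, and 15.9% and 16.9% without the filter. For other lysosomal proteins the counts were 8 higher and 7 lower with total counts (16.7% and 14.6%), and 1 lower (2.08%) at 0.01. They were 11 to 23 higher and 1 to 7 lower with a library left out. Other V-ATPase subunits gave 5 higher (31.2%) with DESeq2, and 1 lower without the filter (5.26%), with the block or at 0.01 (6.25% each). They gave 2 to 12 higher and 1 to 4 lower with a library left out. Other autophagy genes gave 5 higher and 8 lower (13.2% and 21.1%) with total counts, and 17 and 2 (44.7% and 5.26%) with DESeq2. They gave 6 higher (15.8%) with the block or at 0.01, and 6 to 23 higher and 1 to 2 lower with a library left out. The regulators gave 1 higher and 9 lower (3.23% and 29%) with total counts, and 5 higher (16.1%) with DESeq2. They gave 1 higher (3.23%) with the block, and 1 and 1 (3.23% each) at 0.01. With a library left out they gave 1 to 11 higher and 1 to 7 lower. The cause of these changes was not tested.

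Same-numbered libraries did not deviate together (correlations of deviations from the group means -0.299, 0.119 and -0.187), so the numbers were not taken as pairs; the replicate block lost the calls of Gla, Ulk1 and Atg7. With RLE factors or the filter of 10 counts all 41 genes kept direction and call. Fitted directions that turned were of genes not called with all libraries. With total counts, log2 changes were -0.22 for Ctsb, -0.14 for Gaa, -0.16 for Grn, -0.27 for Scarb2, -0.21 for Mcoln1, -0.06 for Atp6v0d1, -0.41 for Atp6v1h, -0.27 for Wipi1, -0.04 for Atg5, -0.08 for Map1lc3b and -0.31 for Gabarapl1. With a library left out, changes ran from -0.31 to 0.15 for Tfeb, -0.54 to 0.39 for Ctsa, -0.52 to 0.33 for Ctsh, -0.63 to 0.25 for Ctsz, -0.19 to 0.24 for Psap, -0.01 to 0.36 for Scarb2 and -0.03 to 0.31 for Wipi1, all 7 turning without control replicate 3. Those of Atp6v1h ran from -0.14 to 0.39 and turned without control replicate 1, control replicate 2 or doxycycline replicate 3.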
